A study of Mus musculus with 11 samples.

Results

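The genes of 8 monogenic small vessel diseases, Htra1, Ctsa, Trex1, Gla, Foxc1, Cst3, Itm2b and App, were followed across cells of the mouse brain vasculature. They were taken by symbol as 8 of the 32287 features counted. No cutoff on their levels was used, but earlier results of these data were known when they were chosen. Single-cell RNA sequencing (droplet libraries, 3′ counts) had been done on brain vessels of 11 untreated mice, 1 library per mouse. The 6 R182C-TgN3 mice (Tg350 in the labels) carried a human NOTCH3 transgene with R182C, a variant of the inherited small vessel disease CADASIL, 3 of them 6 months and 3 of them 9 months old. The 5 WT-TgN3 mice (Tg100) carried wild-type human NOTCH3, 3 at 6 months and 2 at 9 months, so both genotypes have a transgene beside the mouse gene and no mouse without one is among the samples used here. Both sexes were used, and the labels give 4 batches. Batches 1 and 3 held 2 mice of each genotype, batch 4 held 1 of each, and batch 2 held 1 R182C-TgN3 mouse alone. No batch held mice of both ages, so age and batch cannot be told apart. Brains had been digested to microvascular fragments and enriched with antibodies to CD31, an endothelial surface protein, which sets how many cells of each type were captured.

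In people, mutations of these genes lead to disease of the small brain vessels by different routes. HTRA1 is a secreted serine protease that acts on matrix and TGF-beta binding proteins. Cathepsin A (CTSA) protects other lysosomal enzymes, and alpha-galactosidase A (GLA) degrades glycolipids and is lacking in Fabry disease. TREX1 degrades cytosolic DNA, and FOXC1 is a forkhead transcription factor of neural crest and vascular development. Cystatin C (CST3), ITM2B (also BRI2) and the amyloid precursor protein (APP) give rise to proteins or peptides that deposit in vessel walls as amyloid in familial cerebral amyloid angiopathies.

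The libraries held between 17550806 and 64215050 UMIs, and the median cell of a library held 3513 to 7684. Of 66658 barcodes, 58353 passed the filters, and 1428 of those barcode sequences occurred in more than 1 library, 991 of them within the 6-month libraries, where the pair that shared most had 158 in common. Cells were typed by marker genes that exclude the 8, which gave 44855 cells in 9 types. These were 21724 capillary, 3855 arterial, 1513 venous and 1666 fenestrated endothelial cells (EC), 2006 smooth muscle cells (SMC), 513 pericytes, 76 fibroblasts, 13323 microglia and 179 macrophages. Sums of at least 10 cells were used, which left all 11 mice for each type except macrophages with 9 mice and fibroblasts with 3 (1 R182C-TgN3 and 2 WT-TgN3). The authors left out 1 control sample from their microglial analysis because of strongly polarized microglia, and their methods do not say which. All WT-TgN3 mice were kept for microglia here. Human NOTCH3 separated the genotypes in SMC, where it was at 190 to 363 CPM (UMIs of a gene scaled to 1000000 UMIs of its sum) in R182C-TgN3 and 15.9 to 68.3 CPM in WT-TgN3 mice. The variant therefore cannot be told apart from the transgenic line or from the level of the transgene.

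Levels are given in CPM, per mouse and cell type, as mean ± SD over mice. They compare cell types for 1 gene and not genes with each other, because a 3′ count follows the position of the polyadenylation sites and not the length of the transcript. The cell types were compared within mouse on the summed counts with edgeR's quasi-likelihood test over 12702 genes, and a gene is said to have risen, fallen or differed where the Benjamini-Hochberg adjusted p is under 0.05. The replicates are mice, and the cell types of a mouse share its library.

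**Figure D1:**
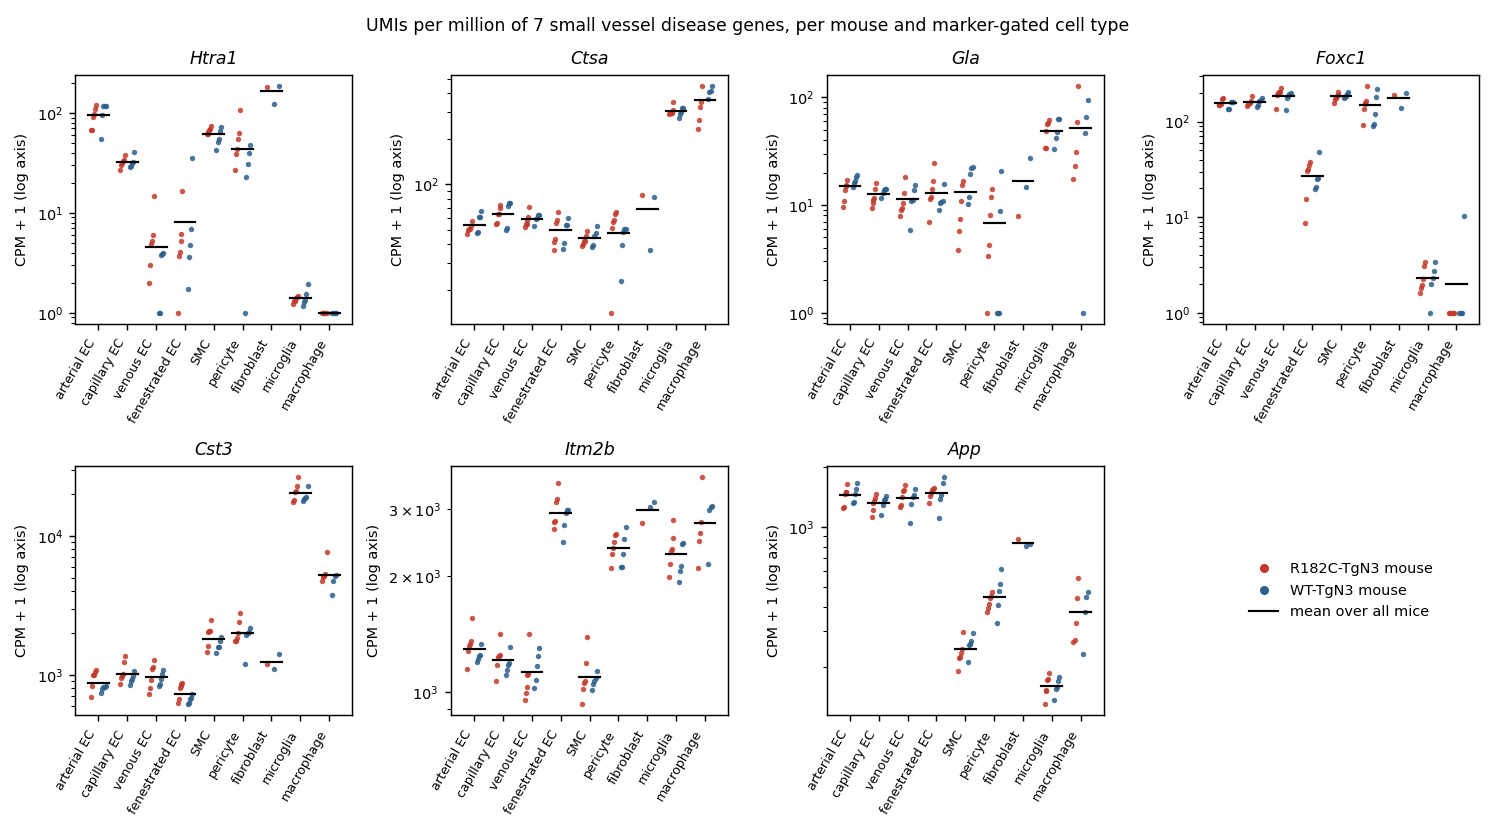
Level in CPM plus 1, on a log axis, of 7 of the genes in each mouse (points, by genotype) and marker-gated cell type, with the mean over mice as a line. Cst3 stands near 20267 CPM in microglia and Ctsa and Gla are high in microglia and macrophages, while Htra1 and Foxc1 are near 0 there, and the points of the genotypes overlap in all types with several mice of each.

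Htra1 (chr7:130936111-130985660, plus strand, mm10) was carried by the arterial side of the tree, by mural cells and by fibroblasts. In arterial EC it was at 95.05 ± 23.5 CPM (n = 11), with 53.5 in the lowest mouse, 95.6 in the median and 118 in the highest. Capillary EC held 31.5 ± 4.10 CPM, from 26.0 to 39.97, and the ranges of these types did not overlap. In venous EC only 44 UMIs were counted, 3.51 ± 3.8 CPM, and 2 of the 11 mice had none. Against capillary EC, Htra1 was higher in arterial EC by 1.60 ± 0.13 on the log2 scale (± SE, edgeR adjusted p = 7.9e-19) and lower in venous EC by a log2 change of -3.08 ± 0.29 (adjusted p = 2.7e-15), with the same sign in 11 of 11 mice each. Across the endothelial tree the gene thus went down from artery to capillary to vein. After each cell was thinned to 2000 UMIs, 15.5% of arterial, 6.26% of capillary and 1.18% of venous EC held a Htra1 UMI, against 0.111% of microglia, which hardly carry the gene. Thinning left out 126, 1213, 415 and 1589 shallower cells of these types. Without it the shares were 36.9%, 14.3%, 2.51% and 0.218%, at median depths of 6132, 4476, 5070 and 5134 UMIs per cell. With cell types taken from clusters instead of the gate, the venous difference was -1.34 with an edgeR adjusted p of 0.214.

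Outside the endothelium Htra1 was at 61.2 ± 9.63 CPM in SMC, from 41.4 to 73.0 CPM. It exceeded capillary EC in 11 of 11 mice, by a log2 change of 1.18 ± 0.15 (edgeR adjusted p = 2.0e-11), and again the ranges did not overlap. Pericytes had 42.4 ± 27.0 CPM from 77 UMIs, and SMC exceeded them in 9 of 11 mice. The edgeR change of 0.88 ± 0.30 (adjusted p = 0.0114) became 0.49 with an adjusted p of 0.196 when library sizes were used without TMM, and the call was also lost with DESeq2 (adjusted p = 0.0506). For this pair of types the median over all genes moved from 0.06 with TMM to -0.14 with DESeq2's size factors and -0.32 with library sizes, so the size of each change between SMC and pericytes depends on the scaling. In the fibroblasts of the 3 mice with enough cells, Htra1 was at 181, 123 and 186 CPM, the highest mean of the 9 types and above every SMC sum. The log2 change from SMC was 1.06 ± 0.35 (edgeR adjusted p = 0.0126), and it lost the call without WT-TgN3 9 months mouse 1 (0.89, adjusted p = 0.253) or without R182C-TgN3 6 months mouse 2 (0.99, adjusted p = 0.0811). A cluster of 255 cells whose leading genes included the fibroblast genes Dcn, Lum and Col1a1 was given no type. In the 10 mice that had it, Htra1 was lower than in the gated fibroblasts, at 115 ± 42.0 CPM, and its lowest mouse, at 63.4 CPM, was below the highest SMC sum. Microglia held 29 Htra1 UMIs in 13323 cells (0.403 ± 0.207 CPM). No macrophage held any, 0 of 179 cells, which allows a share of cells with a Htra1 UMI of up to 1.68% and sets no limit on cells that express the gene.

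Fenestrated EC, the Plvap-expressing cells of vessels without a blood-brain barrier, were low in Htra1 in 10 of 11 mice. The 5 WT-TgN3 mice had 3.77, 0.725, 5.90, 2.65 and 34.4 CPM, the last being mouse 2 of 9 months, and the R182C-TgN3 mice ran from 0 to 15.4 CPM. Without the high mouse the ranges of fenestrated and capillary EC do not overlap. The log2 change against capillary EC was -1.81 ± 0.24 (edgeR adjusted p = 6.0e-10) with all mice and -3.32 (adjusted p = 1.5e-20) without the high mouse. In the high mouse, venous markers summed to 391.7 CPM in the fenestrated gate against 42.3 to 145 CPM in the other 10 mice, and the part of other endothelial RNA in that value was not tested.

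The partners of Htra1 in the matrix and TGF-beta pathway were read from a list of 10 genes. In arterial against capillary EC 5 of the 10 rose and 1 fell (20.9% and 21.1% of all genes), with a median log2 change of 0.78 against -0.03 over all genes tested. Ltbp1, a latent TGF-beta binding protein, rose by 3.98 ± 0.15, Timp3, a matrix metalloproteinase inhibitor, by 2.15 ± 0.15 and Ltbp4 by 1.40 ± 0.09. In SMC 6 rose and 4 fell against capillary EC (median 0.36, all genes -0.08, of which 33.3% rose and 38.4% fell), led by Tgfb3 at 8.33 ± 0.14 and Ltbp1 at 8.18 ± 0.14, while Ltbp4 fell by 4.06. In venous EC 1 of the 10 rose and 5 fell (17.2% and 17.5% of all genes), among them Tgfb2 with -1.72 ± 0.17 and the protease Htra3 with -7.08 ± 0.72, and Ltbp3 rose by 3.07 ± 0.25. Fibroblasts had more Htra3 than SMC (8.29 ± 0.81) and less Ltbp1 (-4.07 ± 0.32). In fenestrated EC, where Htra1 was lower, 7 of the 10 rose and 2 fell against capillary EC (23.9% and 26.1% of all genes). The median log2 change there was 0.85 against -0.04 over all genes, so the list did not follow Htra1 in that type.

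The lysosomal genes were highest in myeloid cells. Ctsa (chr2:164832873-164841032, plus strand) was at 304 ± 19.8 CPM in microglia, from 274 to 349 CPM, and at 361 ± 76.4 CPM in macrophages (n = 9). Every other type lay between 42.9 and 67.1 CPM on average, and the ranges of microglia and capillary EC were far apart. The log2 change between these was 2.40 ± 0.07 (edgeR adjusted p = 1.2e-53). About 10.5% of the exonic bases of Ctsa lie under Pltp and 6.87% under Neurl2, both on the opposite strand, and the sources used here do not say whether strand was used in counting. Among vascular cells the differences were small. Against capillary EC (62.9 ± 9.78 CPM), Ctsa was lower in arterial EC (log2 -0.23 ± 0.07, adjusted p = 0.00488), fenestrated EC (-0.42 ± 0.09, adjusted p = 2.2e-05) and SMC (-0.28 ± 0.08, adjusted p = 0.00131), all by edgeR with overlapping ranges.

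Gla (chrX:134588149-134601125, minus strand) was at 48.0 ± 11.9 CPM in microglia and 50.8 ± 40.03 CPM in macrophages, the latter from 42 UMIs and from 0 to 126 CPM. Macrophages were higher than microglia in 5 of 9 mice and lower in 4. Capillary EC had 11.7 ± 1.97 CPM, so that microglia exceeded them by a log2 change of 2.12 ± 0.09 (edgeR adjusted p = 2.7e-39), with no overlap of the ranges. Vascular types other than pericytes lay between 10.3 and 15.6 CPM in the mean, and neighbours in that order did not differ beyond their spread. Pericytes were lowest at 5.83 ± 6.59 CPM, but this rests on 8 UMIs. SMC exceeded them by a log2 change of 1.79 ± 0.47 (edgeR adjusted p = 8.5e-04), in 7 of 11 mice, and by 1.40 (adjusted p = 0.0142) with library sizes.

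Other lysosomal genes were also higher in microglia than in capillary EC, but did not follow Ctsa and Gla in every contrast. Of 13 listed partners, 12 were higher in microglia than in capillary EC and none was lower (39.6% and 44.2% of all genes), with a median log2 change of 2.39 against -0.07 over all genes. The 3 of smallest p were the proteases Ctsd (4.72 ± 0.09) and Ctsb (3.56 ± 0.07) and the hexosaminidase subunit Hexa (3.32 ± 0.07). In SMC against capillary EC 1 rose and 8 fell (33.3% and 38.4% of all genes), led by Ctsh with -3.78 ± 0.11. Fibroblasts had more than SMC of 7 of the 13 and less of none (median 1.18, all genes -0.14, of which 16.3% were higher and 16.5% lower), with Ctsl at 3.41 ± 0.12. Ctsa (0.06) and Gla (0.12) did not pass there. Against capillary EC 8 of the 13 rose and 2 fell in fenestrated EC (23.9% and 26.1% of all genes). In arterial EC 6 rose and 2 fell (20.9% and 21.1%). Ctsa was lower in both of these types, and Gla passed in neither, nor in SMC against capillary EC.

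Trex1 could not be followed. Only 3 UMIs of Trex1 were counted among 443513007 UMIs in all barcodes, 2 of them in typed cells (1 arterial and 1 capillary EC), and none in microglia. The gene (chr9:109057933-109059734, minus strand) lies with 100% of its exonic bases inside exons of Atrip on the same strand. Atrip had 6515 UMIs in 5769 barcodes. How reads from the shared exons were assigned is not given in the sources used here, so the Trex1 count does not measure the Trex1 transcript, and no test was made. Of 10 listed genes that handle cytosolic nucleic acids, 4 were higher and 5 lower in microglia than in capillary EC, near the 39.6% and 44.2% of all genes. Tmem173, which encodes the adaptor STING, was higher by 5.46 ± 0.09 and the DNA sensor Cgas by 2.33 ± 0.10, while Rnaseh2c, a subunit of ribonuclease H2, was lower (-1.2 ± 0.07). In SMC 1 of the 10 rose and 9 fell against capillary EC (33.3% and 38.4% of all genes). The median log2 change there was -1.09 against -0.08 over all genes.

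Foxc1 (chr13:31806633-31812476, plus strand) was shared by endothelial, mural and fibroblast cells, with fenestrated EC as the exception. It was at 185 ± 28.7 CPM in venous EC, 183 ± 13.5 in SMC, 174 ± 33.2 in fibroblasts (n = 3), 159 ± 13.1 in capillary EC, 154 ± 13.01 in arterial EC and 148 ± 49.0 in pericytes. No neighbours in this order differed beyond their spread. Fenestrated EC held 26.2 ± 11.1 CPM, from 7.77 to 47.2, and the highest of them was below the lowest capillary sum of 140 CPM. The log2 change against capillary EC was -2.55 ± 0.12 (edgeR adjusted p = 5.3e-35), and it ran from -2.80 to -2.47 over 24 alternative settings. In thinned cells Foxc1 was seen in 24.5% of capillary EC, 5.57% of fenestrated EC and 0.222% of microglia, and in whole cells in 48.7%, 14.2% and 0.653%.

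The other Foxc1 differences were smaller or depended on settings. SMC exceeded capillary EC in 11 of 11 mice by a log2 change of 0.43 ± 0.09 (edgeR adjusted p = 1.0e-05) although the ranges overlapped. SMC exceeded pericytes by 0.80 ± 0.14 (edgeR adjusted p = 5.0e-07) in 8 of 11 mice, and by 0.41 (adjusted p = 0.0123) with library sizes. Venous EC exceeded capillary EC by 0.26 ± 0.09 (edgeR adjusted p = 0.0185) in 9 of 11 mice, but this call was lost in 7 of 24 alternatives and the estimate turned to -0.20 with types taken from clusters. Leaving out R182C-TgN3 6 months mouse 1, R182C-TgN3 9 months mouse 3 or WT-TgN3 6 months mouse 1, 2 or 3 was enough to lose it, with estimates from 0.22 to 0.23 (edgeR adjusted p from 0.0539 to 0.0788). Microglia had 1.32 ± 0.76 CPM and macrophages 1 UMI in all. Reference genes of capillary EC stood in microglia at 1.72% of their capillary level, and that fraction of capillary Foxc1 would be 2.73 CPM, above the microglial level in each of the 11 mice. Whether Foxc1 in microglia is stray endothelial RNA was not tested.

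Of a list of 8 other vascular transcription factors, mostly forkhead genes, 7 could be tested. In fenestrated against capillary EC 2 of the 7 fell, Foxf2 by -1.06 ± 0.10 and Foxl2 by -0.78 ± 0.14, and none rose, beside 26.1% and 23.9% of all genes. Foxs1 (9.88 ± 0.18), Tbx18 (9.20 ± 0.15) and Foxd1 (8.10 ± 0.17) were SMC genes against capillary EC. Foxf1 was lower in arterial EC (-1.79 ± 0.12) and higher in venous EC (0.78 ± 0.10).

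Cst3 (chr2:148871722-148875692, minus strand) was a microglial transcript that every vascular type also carried. In microglia it was at 20267 ± 2789 CPM, with 17419 in the lowest mouse, 18898 in the median and 26444 in the highest. Macrophages had 5201 ± 1037 CPM, below microglia in 9 of 9 mice and without overlap (log2 -2.37 ± 0.10, edgeR adjusted p = 3.7e-38). Over all genes that contrast had a median of -0.48 with TMM and -0.05 with DESeq2's size factors, and Cst3 lies below both. Pericytes (1988 ± 401 CPM) and SMC (1817 ± 323) followed, then fibroblasts (1230 ± 157), capillary EC (1011 ± 162), venous EC (970 ± 166), arterial EC (875 ± 129) and fenestrated EC (725 ± 98.2).

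The macrophage gate allowed microglial markers. Fcrls stood there at 71.3% of its microglial level, Cx3cr1 at 29.0%, P2ry12 at 15.8% and Tmem119 at 4.85%, and those fractions of microglial Cst3 would be from 983 CPM for Tmem119 to 14459 CPM for Fcrls, on both sides of the measured 5201. The part of microglial RNA in macrophage Cst3 was not tested further.

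In SMC Cst3 exceeded capillary EC by a log2 change of 1.06 ± 0.09 (edgeR adjusted p = 1.8e-20), in 11 of 11 mice and with no overlap of the ranges. Fenestrated EC were below capillary EC by -0.51 ± 0.09 (edgeR adjusted p = 2.5e-07), also in 11 of 11 mice. Fibroblasts were below SMC by -0.76 ± 0.15 (edgeR adjusted p = 2.1e-05). SMC against pericytes gave 0.37 ± 0.09 with TMM (edgeR adjusted p = 3.5e-04) but -0.044 with library sizes alone, and SMC were lower in 7 of 11 mice in CPM, so no direction is given for that pair.

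Cst3 in the EC and mural types exceeded the level scaled from microglial reference genes. A set of microglial genes not used for typing (C1qa, C1qb, C1qc, Csf1r, Trem2, Ly86 and Laptm5) stood at 0.494% to 1.2% of its microglial level in the EC and mural types. The same fractions of microglial Cst3 are 98.4 CPM in SMC, 146 CPM in capillary EC and 242 CPM in pericytes, against 1817, 1011 and 1988 CPM measured. All 11 mice were above their own value in each of these types, and the largest part was 25.8% of the level, in arterial EC. Whether Cst3 strays at the same fraction as the reference genes was not tested.

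**Figure D2:**
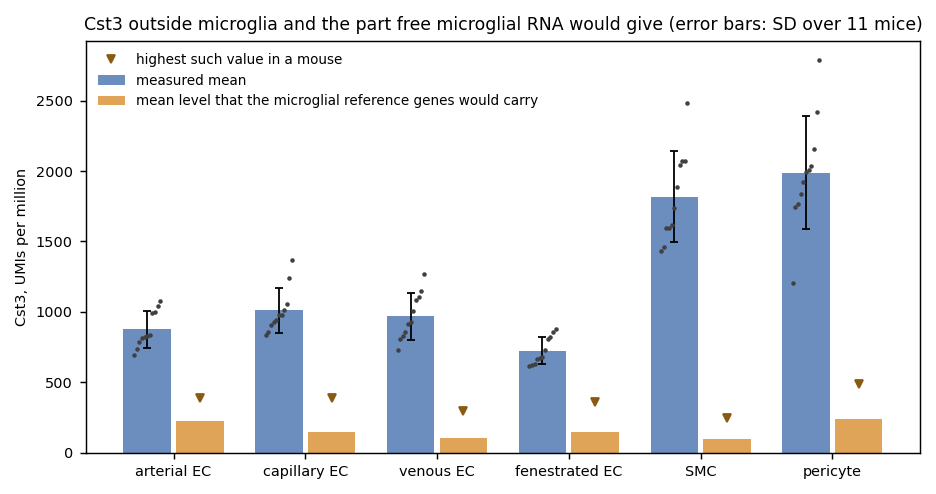
Cst3 level in CPM in the 6 EC and mural types (bars, mean with SD over 11 mice; points, mice) beside the level that microglial reference genes would carry (bars; triangle, highest mouse). The carried level lies between 98.4 and 242 CPM, and the measured means lie between 725 and 1988 CPM.

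Itm2b (chr14:73362226-73385289, minus strand) split the types into a high and a low group that cut across lineages. Fibroblasts (2973 ± 190 CPM, n = 3), fenestrated EC (2916 ± 285), macrophages (2754 ± 482), pericytes (2369 ± 205) and microglia (2284 ± 261) were high, with no difference beyond the spread between neighbours. Arterial (1292 ± 109), capillary (1207 ± 95.1) and venous EC (1127 ± 142) and SMC (1089 ± 120) were low. The lowest microglial sum, 1929 CPM, was above the highest arterial sum, 1559 CPM. Fenestrated EC exceeded capillary EC by a log2 change of 1.24 ± 0.07 (edgeR adjusted p = 1.8e-31), microglia exceeded them by 1.03 ± 0.06 (adjusted p = 4.9e-27), and SMC were below pericytes by -0.63 ± 0.07 (adjusted p = 2.5e-13), or -1.04 with library sizes. Each held in 11 of 11 mice without overlap. In fibroblasts against SMC the change was 1.12 ± 0.10 (edgeR adjusted p = 1.9e-16).

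App (chr16:84949685-85173766, minus strand) was an endothelial transcript. Fenestrated (1484 ± 177 CPM), arterial (1455 ± 144), venous (1405 ± 165) and capillary EC (1320 ± 110) did not differ from their neighbours beyond the spread. Fenestrated and venous EC each exceeded capillary EC in 10 of 11 mice. Fibroblasts followed at 835 ± 36.4 CPM, then pericytes at 445 ± 77.8, macrophages at 376 ± 110, SMC at 245 ± 34.2 and microglia at 159 ± 17.2 CPM. SMC were below capillary EC by a log2 change of -2.22 ± 0.07 (edgeR adjusted p = 3.1e-51) and below pericytes by -0.35 ± 0.08 (adjusted p = 8.0e-05; -0.76 with library sizes), and microglia below capillary EC by -2.95 ± 0.07 (adjusted p = 1.7e-61), all in 11 of 11 mice without overlap. Macrophages exceeded microglia by 0.88 ± 0.10 (edgeR adjusted p = 5.1e-13), in 9 of 9 mice. Arterial EC exceeded capillary EC by a small change (0.15 ± 0.06, edgeR adjusted p = 0.0333) in 11 of 11 mice, with overlapping ranges. This call was lost in 14 of 24 alternatives, among them the omission of any mouse other than R182C-TgN3 9 months mouse 1 and WT-TgN3 9 months mouse 2 (0.12 to 0.15, adjusted p from 0.0567 to 0.132).

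Among 15 genes of amyloid precursor processing, 4 rose and 7 fell in SMC against capillary EC, beside 33.3% and 38.4% of all genes. The beta-secretase Bace1 was higher there by 2.10 ± 0.08, where App itself was lower, and the alpha-secretase Adam10 was lower (-2.80 ± 0.08). In fenestrated EC 3 rose and 6 fell (23.9% and 26.1% of all genes), with Bace2, a related protease, at 4.36 ± 0.14. Of the paralogues of Itm2b, Itm2a was lower than in capillary EC in microglia (-7.70 ± 0.15), SMC (-8.08 ± 0.17), fenestrated EC (-2.92 ± 0.12) and arterial EC (-2.11 ± 0.11), and Itm2c was higher in microglia (1.91 ± 0.06), as Itm2b was, and in venous EC (1.39 ± 0.07).

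Further genes of inherited small vessel disease were read from a list of 6. In SMC against capillary EC 4 rose and 2 fell (33.3% and 38.4% of all genes), led by mouse Notch3 (8.23 ± 0.14) and human NOTCH3 (7.39 ± 0.17), with Abcc6, a transporter gene, lower (-5.63 ± 0.23). In fenestrated EC 3 rose and 1 fell (23.9% and 26.1%), with the basement membrane collagens Col4a2 at 1.86 ± 0.08 and Col4a1 at 1.84 ± 0.09 and Abcc6 at -5.15 ± 0.23. None of the 6 was higher in microglia than in capillary EC and 5 were lower (39.6% and 44.2% of all genes).

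The number of genes that differed is read against the share of all 12702 genes that did so in the same direction. Between microglia and capillary EC 7 of 7 differed, 4 higher and 3 lower, beside 83.8% of all genes (39.6% higher, 44.2% lower). Between fenestrated and capillary EC 5 of 7 differed, Itm2b higher and 4 lower, beside 50% (23.9% higher, 26.1% lower). Arterial and capillary EC differed in 3, with 2 higher and 1 lower, beside 42.1% (20.9% higher, 21.1% lower), and venous and capillary EC in 2, Foxc1 higher and Htra1 lower, beside 34.7% (17.2% higher, 17.5% lower). SMC differed from capillary EC in 5, 3 higher and 2 lower, beside 71.7% (33.3% higher, 38.4% lower), and from pericytes in 6, 4 higher and 2 lower, beside 43.1% (24.8% higher, 18.3% lower). Among the 4 higher than in pericytes, Cst3 turned and Htra1 lost its call with library sizes, and Gla rests on 8 pericyte UMIs. Fibroblasts differed from SMC in 4, 3 higher and 1 lower, beside 32.9% (16.3% higher, 16.5% lower), and macrophages from microglia in App, higher, and Cst3, lower, beside 34.6% (7.89% higher, 26.8% lower). Several of these shares lie near those of all genes. Whether the 7 genes differ more often than other genes was not tested.

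**Figure D3:**
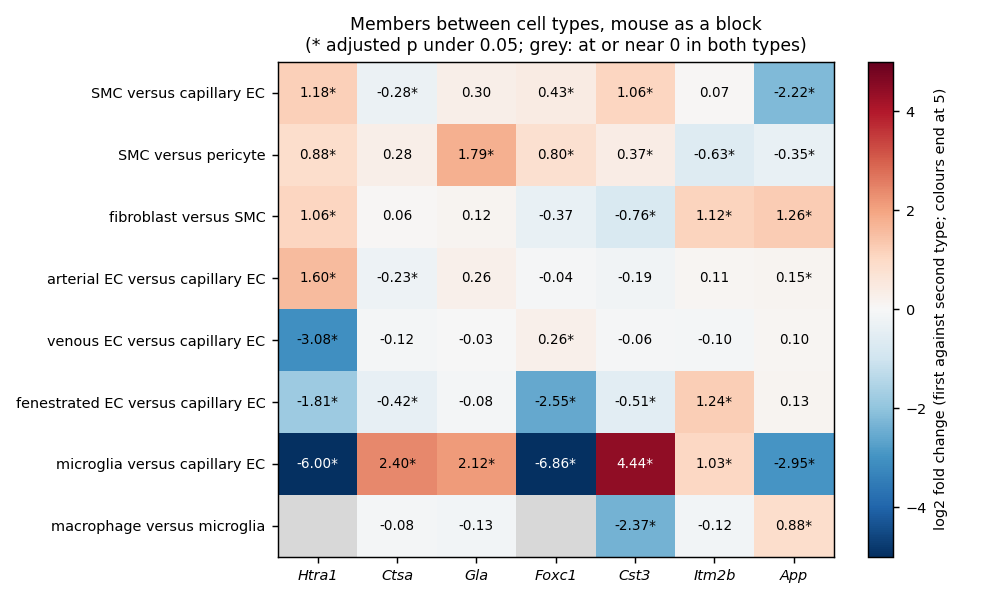
Log2 fold changes between cell types of 7 genes in 8 contrasts, from edgeR with mouse as a block; a star marks an adjusted p under 0.05, and grey cells are at or near 0 in both types. Microglia differ from capillary EC in 7 of 7 genes, from -6.86 for Foxc1 to 4.44 for Cst3, and Foxc1 and Itm2b separate fenestrated from capillary EC in opposite directions.

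The genes whose levels ran most like each of them over the 89 sums of mouse and cell type were named by Pearson's r of log2 CPM among 7248 genes. The sums share mice and libraries and fall into cell types, so these values only describe the pattern. Htra1 ran with Runx1t1 (r = 0.90), the Notch ligand Jag1 (0.89) and the collagen Col18a1 (0.87). Ctsa ran with Erp29 (0.96), the receptor Csf1r (0.95) and the complement gene C1qc (0.94), and Gla with Fcgr2b (0.87), Tank (0.87) and Adgre1 (0.86). Foxc1 ran with Adgra2 (0.97), Pard3 (0.96) and Zic2 (0.95). Cst3 ran with Lgmn (0.93), Basp1 (0.93) and Bin1 (0.93), Itm2b with Cmtm3 (0.89), Gng2 (0.88) and Marcks (0.88), and App with Adgrf5 (0.97), Fgd5 (0.97) and S100a16 (0.96). Among the 7 themselves r was 0.83 for Ctsa and Cst3, 0.80 for Ctsa and Gla, 0.78 for Htra1 and Foxc1 and -0.85 for Cst3 and App.

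Whether these genes differ between the CADASIL line and the wild-type line was asked within each cell type, a comparison that does not separate the variant from the line or from the higher level of human NOTCH3 in R182C-TgN3 mice. The filter on low counts left 45 values to test, 7 genes in arterial EC, capillary EC and SMC and 4 to 6 elsewhere, and Trex1 nowhere. By edgeR none of the 45 passed an adjusted p of 0.05, and 2 had an unadjusted p under 0.05. DESeq2 also called none. Over all genes the share called was 0% in arterial, capillary, venous and fenestrated EC, microglia and macrophages, 0.0117% in SMC and 0.0511% in pericytes, and in both mural types that was human NOTCH3 alone. The share of all genes with an unadjusted p under 0.05 was between 0.994% in microglia and 5.62% in pericytes. The ranges of the genotypes overlapped for each of the 7 genes in each of these types.

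Htra1 in SMC was 1 of the pair with an unadjusted p under 0.05. The 5 WT-TgN3 mice had 53.5, 41.4, 71.5, 64.4 and 49.8 CPM, and the 6 R182C-TgN3 mice ran from 60.5 to 73.0 with a median of 65.2 CPM. The genotypes overlap, since a pair of the WT-TgN3 mice, at 64.4 and 71.5 CPM, lie within the R182C-TgN3 range. Within batches, the R182C-TgN3 mice had 60.5 and 68.3 CPM against 64.4 and 49.8 in batch 1, 67.1 and 60.6 against 53.5 and 41.4 in batch 3, and 73.0 against 71.5 in batch 4. The log2 change was 0.29 ± 0.13 (edgeR, unadjusted p = 0.0367, adjusted p = 1.00). In arterial EC, where Htra1 was higher, the change was -0.09 ± 0.19, and in capillary EC 0.05 ± 0.10.

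Cst3 in arterial EC was the other. WT-TgN3 mice had 786, 818, 827, 819 and 739 CPM, and R182C-TgN3 mice ran from 694 to 1079 CPM with a median of 993. Of the latter 5 of 6 were above every WT-TgN3 mouse, the nearest at 834 CPM, and R182C-TgN3 6 months mouse 2 was below all of them. Within batches, R182C-TgN3 mice had 1043 and 834 CPM against 819 and 739 in batch 1, 989 and 694 against 786 and 818 in batch 3, and 997 against 827 in batch 4, so batch 3 alone had mice of both orders. The log2 change was 0.28 ± 0.12 (edgeR, unadjusted p = 0.0377, adjusted p = 1.00). Estimates for Cst3 were above 0 in 8 of 8 types, from 0.13 ± 0.15 in venous EC to 0.31 ± 0.26 in macrophages, and 0.16 ± 0.14 in microglia, where it is most abundant. These types come from the same mice and share libraries, so they are not 8 separate observations.

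**Figure D4:**
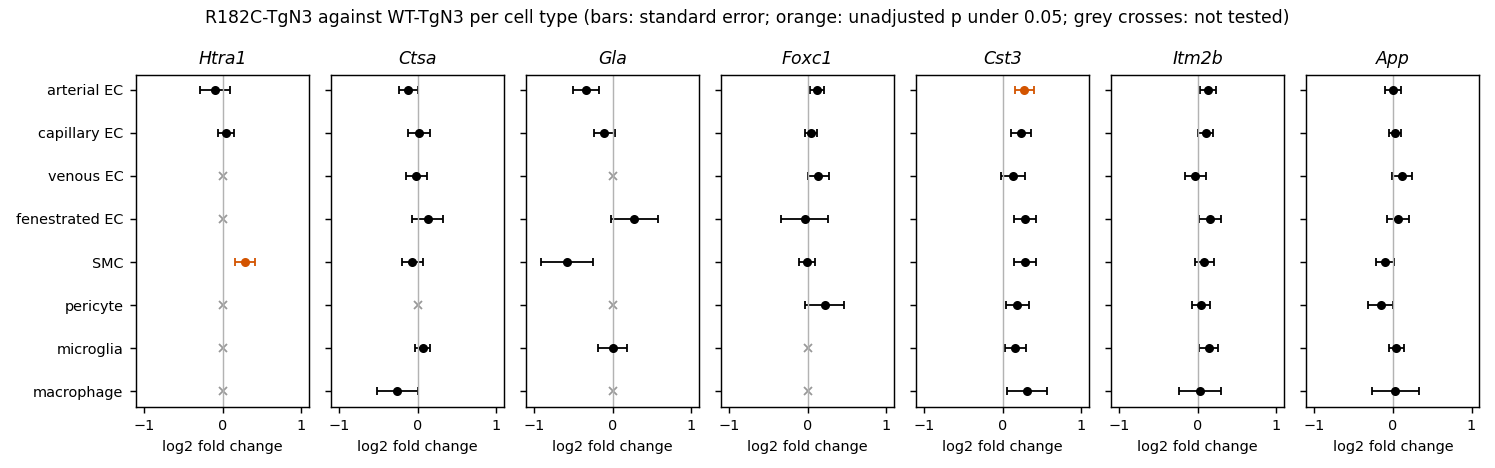
Log2 fold change of R182C-TgN3 against WT-TgN3 mice for 7 genes in 8 cell types, with standard errors; orange points have an unadjusted p under 0.05 and grey crosses were not tested. Cst3 lies to the right of 0 in 8 of 8 types, and no gene passed an adjusted p of 0.05 in any of them.

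For the other genes the estimates lay on both sides of 0. The estimate for Gla was -0.58 ± 0.32 in SMC (edgeR, adjusted p = 1.00) and -0.34 ± 0.17 in arterial EC, and its estimate in fenestrated EC was 0.27 ± 0.30. App ran from -0.16 ± 0.16 in pericytes to 0.12 ± 0.13 in venous EC, and Itm2b from -0.03 ± 0.13 in venous EC to 0.15 ± 0.14 in fenestrated EC. Ctsa lay between -0.26 ± 0.26 in macrophages and 0.13 ± 0.20 in fenestrated EC, and Foxc1 between -0.04 ± 0.30 in fenestrated EC and 0.22 ± 0.25 in pericytes. The term for a genotype difference that changes with age was tested for the same 45 values, and none passed (edgeR, 0% of all genes in each type). Its unadjusted p was under 0.05 for Ctsa in capillary EC (0.0434) and Gla in SMC (0.0455). Of the listed pathway genes only human NOTCH3 differed by genotype, in SMC by 2.43 ± 0.26 (edgeR adjusted p = 3.2e-05) and in pericytes by 1.48 ± 0.18 (adjusted p = 2.8e-05), while mouse Notch3 did not pass.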

How the data were processed

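One library per mouse was made from bead-isolated brain vessels. The authors ran Cell Ranger 7.0.0 on mm10 with human NOTCH3 added, and deposited filtered matrices of raw UMI counts per gene and barcode. How reads in introns or on the opposite strand were counted is not given in the sources used here. The 8 genes and the lists were chosen with earlier results of these data known.

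A barcode entered with 500 or more detected genes and no more than 10% of its UMIs from mitochondrial genes. Scrublet doublets (3272, at 0.8% per 1000 barcodes) were dropped, and cells were typed by a gate on marker genes (at least 40% of a type's markers with a UMI). Of 35392 EC, 6634 had no subtype and were left out. Raw counts were summed per mouse and type. edgeR 4.0.16 (quasi-likelihood, TMM, filterByExpr, Benjamini-Hochberg) compared types with mouse as a block, and genotypes within type without covariates. Genes of ribosomal proteins, of mitochondria and with Gm or Rik names were not tested. The genotype test in microglia, SMC and capillary EC and the contrast of SMC with capillary EC were tried on simulated data. The p-values of the genotype tests measure the spread between mice. Those between cell types measure the spread that is left once each mouse is a block. The alternatives were DESeq2 1.42.0, other scalings and filters, Leiden clusters, doublets kept, sex or batch as covariate, each age alone, a replicate block and leaving out each mouse. The 3 alternatives of leaving out barcodes shared between libraries, of sums of at least 5 cells and of library sizes without TMM were added after the data were seen.

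The same age and replicate number paired 5 mice of each genotype. Deviations from the group means correlated by 0.138 to 0.468 within pairs in microglia and by -0.22 to 0.39 elsewhere. The value was over 0.1 in 5 of 5 pairs in microglia and in 3 of 5 in arterial and in capillary EC. Mice of a pair also shared a batch, so these values do not tell pairing from batch. The text names the 8 genes everywhere, up to 3 list genes of smallest p per list and comparison, and the 3 genes of highest Pearson's r (log2 CPM, 2 prior counts, mean of at least 20 CPM), which are not given for Trex1 because it was near 0. Python 3.11.15, scanpy 1.11.5, leidenalg 0.10.2 and R 4.3.3 were used.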

Additional observations from a re-analysis of the deposited data

Results flagged for a closer look

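In groups of 4 to 6 mice, a mouse that stood apart, with a gap to its neighbour of 0.651 to 1.0 of the range of its group, was found 14 times in 109 groups of a gene, type and genotype. Chance gives about 1 in 20 for separate groups. These groups share mice and libraries and some values rest on 1 UMI, so no excess over chance can be read from the count. Causes were not tested.

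WT-TgN3 9 months mouse 2 stood apart in fenestrated EC for 3 genes. It had Htra1 at 34.4 CPM from 75 UMIs (median of the other WT-TgN3 mice 3.21), Foxc1 at 47.2 CPM (21.8) and Gla at 14.7 CPM. In the same sum venous markers reached 391.7 CPM, arterial markers 506 CPM and fenestrated markers 7880 CPM, against 42.3 to 145 CPM, 289 to 762 CPM and 8583 to 11027 CPM in the other mice. The same mouse had the highest WT-TgN3 Cst3 level in microglia, 22839 CPM. R182C-TgN3 6 months mouse 2 had Htra1 at 15.4 CPM in fenestrated EC, from 6 UMIs and with the highest sum of arterial markers (762 CPM), Foxc1 at 133 CPM in venous EC (median of the others 203), and Ctsa at 13.1 CPM in pericytes from 1 UMI.

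The other mice that stood apart did so in 1 or 2 values each. R182C-TgN3 6 months mouse 1 had Htra1 at 13.9 CPM in venous EC (12 UMIs, median of the others 3.85) and Cst3 at 7654 CPM in macrophages. R182C-TgN3 6 months mouse 3 had Itm2b at 1412 CPM in venous EC and Ctsa at 349 CPM in microglia. WT-TgN3 6 months mouse 2 had Cst3 at 1203 CPM in pericytes and Foxc1 at 9.17 CPM in macrophages, from 1 UMI. WT-TgN3 6 months mouse 3 had Itm2b at 2157 CPM in macrophages.

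Among clusters that were left unnamed, 4 had a mean above the highest of the typed cells for 1 gene. A cluster of 226 cells whose leading genes included Slc1a2, Ptprz1 and Gpr37l1 had Htra1 at 243 ± 111 CPM (SD, 9 mice), where typed fibroblasts had 163. A cluster of 742 cells led by the B cell genes Igkc, Ly6d and Cd79a had Gla at 88.2 ± 32.1 CPM (10 mice), where macrophages had 50.8. Foxc1 was at 186 ± 46.2 CPM (10 mice) in 255 cells whose leading genes included Dcn, Lum and Col1a1 and at 185 ± 56.4 CPM (9 mice) in 1461 cells led by Rgs5, Mgp and Bmx, beside 185 ± 28.7 in venous EC, which is no difference beyond the spread.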

How the results depend on the processing

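By genotype, 1288 values of single genes under 29 alternatives included no change of call, and 88 changed sign (edgeR and DESeq2, smallest adjusted p 0.731). With the replicate block, which drops R182C-TgN3 9 months mouse 3, 0 genes were called in each type, and Htra1 in SMC and Cst3 in arterial EC gave 0.25 and 0.21. Leaving out each mouse gave 0 to 0. Fibroblasts could be tested by genotype only with sums of 5 cells (0 of 5 genes called) or at most 20% mitochondrial UMIs (0 of 6). Between cell types, 1229 of 1323 values kept their call, 30 lost it, 53 gained it and 11 turned. Turned in macrophages against microglia were Ctsa (0.36 with DESeq2 and with size factors, 0.38 with library sizes), Itm2b (0.34, 0.34 and 0.36), Htra1 (2.65 with DESeq2, on 0 macrophage UMIs) and Foxc1 (2.09 with clusters). The median of all genes in that contrast moved from -0.48 to -0.05 and -0.03 with size factors and library sizes. It moved from -0.07 to -0.21 and -0.29 in microglia against capillary EC, from -0.14 to 0.02 and 0.19 in fibroblasts against SMC and from -0.08 to -0.03 and -0.26 in SMC against capillary EC. In venous against capillary EC, Foxc1 (-0.20) and App (-0.30) turned with clusters, and in SMC against pericytes Cst3 (-0.044) with library sizes. Called counts moved from 3 to 5 with DESeq2 in arterial EC, from 2 to 1 with 5 cells or doublets kept in venous EC, and from 2 to 5 (DESeq2) or 4 (size factors, library sizes, doublets kept) in macrophages. Without each mouse they ran from 5 to 6 (SMC against capillary EC, fenestrated EC), 6 to 6 (SMC against pericytes), 3 to 4 (fibroblasts), 2 to 4 (arterial), 1 to 2 (venous), 7 to 7 (microglia) and 2 to 3 (macrophages). Mean levels moved for Itm2b in fibroblasts, 2973 CPM, to 3285 with 5 cells and 2588 with TMM, and for Foxc1 in venous EC, 185 CPM, to 121 with clusters. The cause was not tested. No cluster was typed as fibroblasts, and the stricter gate or 20 cells left too few, so those alternatives gave no value there. Low UMI counts limit Trex1 everywhere, Htra1 in venous EC and Gla in pericytes.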
